A study of Homo sapiens with 8 samples.

Results

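Interferon-stimulated genes (ISGs) were examined by Ago2-RIP-Chip in ST486, a cell line derived from Burkitt lymphoma (BL), with and without ectopic miR-155. The set holds 45 genes listed by symbol and not by their values, although earlier results of these data were known when it was chosen. Their probes are the 70 of 41000 array probes whose RefSeq accession maps to one of these symbols. A probe was found for 43 of the 45 genes, and IFI27 and CMPK2 were not matched to one. ST486 cells had been transduced with the retroviral MXW-PGK-IRES-GFP vector, either empty (EV-ST486) or carrying miR-155 (miR-155-ST486), and GFP-positive cells were sorted. The labels name no interferon treatment. RNA was taken from whole cells, the total (T) fraction, and from material precipitated with an antibody against Ago2, the immunoprecipitated (IP) fraction. This gives 4 RNA samples, EV total, EV IP, miR-155 total and miR-155 IP, with n = 1 each. Both dyes, Cy3 and Cy5, were used for every sample, and each of 4 arrays carried the IP and the total RNA of one vector in opposite dyes, which gives 8 channels and 2 dye orientations per vector.

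Type I interferons bind a cell-surface receptor whose kinases phosphorylate STAT proteins, among them STAT2, which join IRF9 in the complex ISGF3. ISGF3 enters the nucleus and binds interferon-stimulated response elements in the promoters of ISGs, whose products sense viral nucleic acids, block viral entry and translation, or degrade viral RNA. Many ISGs are also transcribed at a low basal level in B cells without added interferon. Ago2 binds miRNAs and carries them to the transcripts they target, so the IP/T ratio, the IP signal over the total signal of the same cells, is used as a measure of how strongly a transcript is represented among miRNA-bound RNA.

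The miRNA that the vector supplied reads as follows in the RefSeq table (GRCh38.p14, chr21:25573983-25574006, + strand), with the seed, bases 2 to 8, in capitals.
hsa-miR-155-5p: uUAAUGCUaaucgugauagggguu
The promoters of many ISGs hold a common motif. Windows from 250 bases before to 50 bases after each annotated gene start were searched on both strands for the core of an interferon-stimulated response element, that is, GAAA, 2 bases of any kind and GAAA again. A match was present in 1255 of 35116 promoters of all genes (3.57%) and in 29 of 50 ISG promoters (58.0%), which belong to 25 of the 36 ISGs with an entry in the table (69.4%). It was found for 12 of 18 genes whose probes were kept after the filters below and for 13 of 18 genes without such a probe. For 6 of the genes described further on, 1 match each is printed as an example, with 10 bases on either side, the motif in capitals and the build GRCh38.p14.
ISG15, chr1:1013380-1013409, + strand: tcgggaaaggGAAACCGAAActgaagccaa
ISG20, chr15:88638937-88638966, + strand: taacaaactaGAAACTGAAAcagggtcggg
IFIT5, chr10:89414513-89414542, - strand: gtaagcttcaGAAACCGAAActtaatagaa
IFIH1, chr2:162318686-162318715, - strand: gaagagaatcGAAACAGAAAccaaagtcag
PARP9, chr3:122564322-122564351, + strand: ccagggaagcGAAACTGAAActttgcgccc
BST2, chr19:17405741-17405770, - strand: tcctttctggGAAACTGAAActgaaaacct
The PARP9 match also lies in the promoter of DTX3L, a ubiquitin ligase that is the partner of PARP9 and whose gene runs in the opposite direction. IRF9, ADAR, SP100, IFI16, IFI35 and SAMD9L, which are also described further on, had no match in this window. USP18, IFIT2, PML, MX2 and OAS2 had no entry in the table. A match is a description of the letters and was not tested as a binding site.

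The 2 arrays of each vector lay on a slide of their own, so vector and slide cannot be told apart, whereas IP and total RNA of one vector shared their arrays. Labelling one RNA sample with both dyes repeats the measurement technically, so that the vectors could not be tested against each other, and the spread between dye orientations covers labelling and hybridization alone. Precision was limited by the number of arrays. Of the 41000 probes, between 14094 and 22161 were detected per channel, that is, well above background. Log2 signals were quantile-normalized over the 8 channels, and 15529 probes (37.9%) were kept that were detected in at least 4 channels and differed by no more than 2-fold between the labellings of each RNA sample. Among B-cell markers, 9 of the 11 genes with a probe had a kept probe, CD79B among them. PAX5 was not detected, and the CD22 probe was removed because its labellings differed by over 2-fold. By contrast, 0 myeloid, plasmacytoid dendritic, erythroid and fibroblast markers and 1 T-cell marker (CD4) had a kept probe. CD30 (TNFRSF8), one of 2 markers of Hodgkin lymphoma, was kept as well, and CD8A, CD14, CD33, GZMB and HBA1 were detected in at least 4 channels and removed because labellings differed by over 2-fold. In bulk RNA, fewer cells that express a gene and less of its RNA per cell cannot be told apart.

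Transcripts of 23 of the 45 ISGs were measured well enough to be compared. Of the 70 ISG probes, 30 (42.9%) were kept, and 21 of these were detected in all 8 channels. A further 10 probes were detected in at least 4 channels but differed over 2-fold between labellings, 15 were detected in between 1 and 3 channels and 15 in 0. In at least 4 channels, 40 of the 70 ISG probes and 19469 of the 41000 array probes were detected. The share kept lies near the 37.9% of all probes. Detection was lowest in 3 of the 4 Cy5 channels, with 27 ISG probes in EV total RNA, 28 in miR-155 IP RNA and 30 in EV IP RNA. It was 44 in miR-155 total RNA in Cy5 and between 40 and 51 in the Cy3 channels. These counts were not set against all probes channel by channel, so they do not show a trait of the ISGs. The 30 kept probes passed a filter on low values, so counts over them do not speak for the other 40 ISG probes.

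**Figure D1:**
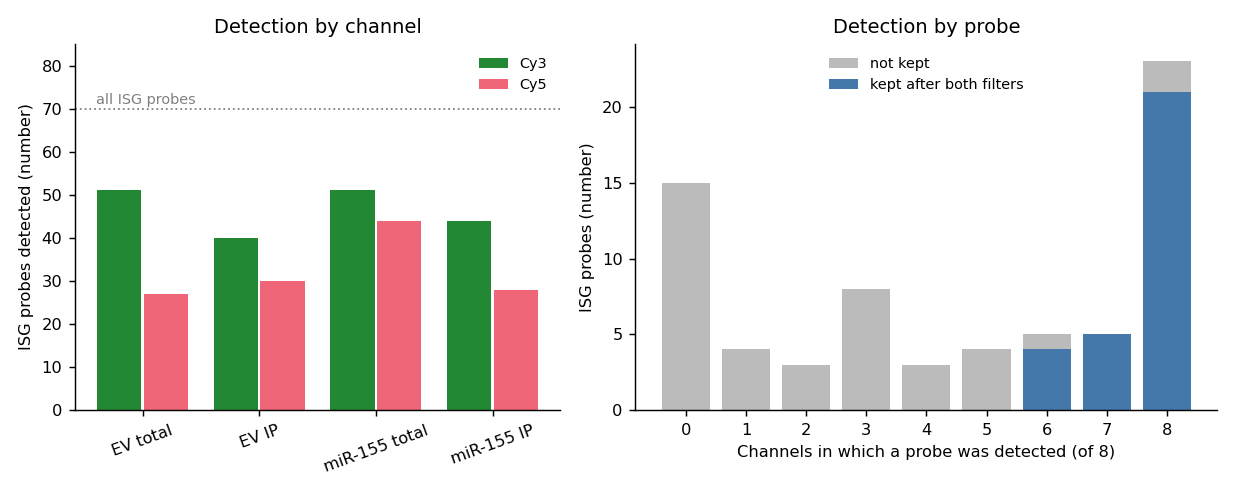
Left, number of the 70 ISG probes detected in each RNA sample with Cy3 (green) or Cy5 (red), out of all ISG probes (dotted line), and right, number of ISG probes by the number of channels, of 8, in which they were detected, with probes kept after both filters in blue (30) and the others in grey. The lowest bar on the left is EV total RNA in Cy5 with 27 probes, and 21 of the 30 kept probes were detected in all 8 channels.

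The ISGs without a detected channel were 7 effectors, namely OAS3, a synthetase of the 2′,5′-oligoadenylate that activates RNase L, the GTPase GBP2, the membrane protein IFITM1, the ISG15 ligase HERC5 and IFI44, IFI44L and EPSTI1, which are used as markers of the interferon response. Detection in only 1 to 3 channels was found for STAT2, the partner of IRF9 in ISGF3, and for OAS1, IFITM2, HERC6, PARP14, DTX3L, XAF1 and RSAD2. For IRF7, which drives interferon-alpha transcription, and for OASL, IFIT3, MX1 and GBP1, the labellings were over 2-fold apart. Kept probes were found for both members of the RNA sensor, nuclear body and SAMD9 groups, for 3 of 4 IFIT genes and for 2 of 4 genes each of the ISG15 system and of the membrane restriction group. They were found for 1 of 4 oligoadenylate synthetases (OAS2), 1 of 4 GTPases (MX2), 1 of the 3 genes PARP9, PARP14 and DTX3L, 1 of 3 signal transducers (IRF9) and 4 of 11 other effectors.

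In the IP fraction of both vectors, IRF9 and IFIT5 stood far above the total fraction, and IFIT2 did so less. IP/T ratios of at least 2 were found for 4 of the 30 kept ISG probes with EV (12.1% of all kept probes) and for 3 with miR-155 (12.2% of all kept probes), each also in both dye orientations. Of these, 3 reached 8-fold with EV (1.55% of all kept probes) and 1 with miR-155 (1.46%). The number past 2-fold was near the share of all probes. IRF9, the DNA-binding subunit of ISGF3, had the highest IP/T ratio of the ISGs.

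Its normalized signals, given here and below as Cy3 and Cy5, were 81.1 and 82.8 in EV total RNA, 1660.5 and 2493 in EV IP RNA, 97.5 and 123 in miR-155 total RNA and 1636 and 2109 in miR-155 IP RNA. Both IP values lay above every total value in each vector, and the vectors overlapped in the IP fraction. Its IP/T ratio with EV was 24.8 (30.7 and 20.1), where brackets hold the ratios for total RNA labelled with Cy3 and, second, with Cy5. With miR-155 it was 17.0 (21.6 and 13.3). The total channels behind these ratios were dim. The spot median in EV total RNA was 104.5 over a local background of 50.5 in Cy3 and 63.0 over 55.5 in Cy5, where it was not detected, against 500.5 over 45.5 and 179.0 over 57.0 in EV IP RNA. With the normexp background correction the EV ratio fell to 5.40 with high local backgrounds replaced and to 1.90 with backgrounds as deposited, and after loess normalization the probe did not pass the filters.

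IFIT5, a member of the IFIT family of RNA-binding proteins that recognise viral RNA ends, was measured by 2 kept probes. For A_24_P30194 the signals were 75.7 and 41.2 in EV total RNA, 561 and 854 in EV IP RNA, 76.9 and 138 in miR-155 total RNA and 772 and 796 in miR-155 IP RNA. For A_23_P63668 they were 34.5 and 32.3 in EV total RNA, 409.7 and 362 in EV IP RNA, 49.5 and 67.7 in miR-155 total RNA and 458 and 395 in miR-155 IP RNA. On both probes the total signals were low and the IP signals of both vectors lay above all of them, with EV total RNA in Cy5 not detected. With EV the IP/T ratios of these probes were 12.4 (11.3 and 13.6) and 11.6 (10.51 and 12.7), and with miR-155 they were 7.62 (10.4 and 5.60) and 7.35 (7.99 and 6.77).

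The related IFIT2, which binds viral RNA and restricts translation, gave signals of 86.7 and 79.8 in EV total RNA, 167 and 259.7 in EV IP RNA, 94.7 and 115 in miR-155 total RNA and 182 and 153 in miR-155 IP RNA. EV IP RNA was higher than EV total RNA with both dyes, and EV total RNA and miR-155 IP RNA in Cy5 were not detected. IP/T ratios of IFIT2 were 2.50 (2.995 and 2.09) with EV and 1.60 (1.61 and 1.59) with miR-155. IFIT1, which binds the cap of viral RNA, was detected in all channels, and its ratios were 1.195 (1.33 and 1.08) and 1.12 (1.06 and 1.19). The IP/T ratios of IFIT5 and IFIT1 differed by more than the dye orientations of either did. Among probes detected in all 8 channels 0 of 21 ISG probes reached 2-fold enrichment, against 11.5% of all such probes with EV and 12% with miR-155, since EV total RNA in Cy5 was not detected for IRF9, IFIT5 and IFIT2. With the 3 normexp settings the EV ratios were lower throughout, between 1.31 and 2.25 for A_24_P30194, between 1.22 and 1.85 for A_23_P63668 and between 1.01 and 1.04 for IFIT2. All 3 settings add the same offset of 50 to every signal on the array, and an added constant draws ratios of any dim probe towards 1. How much of the lower ratios comes from the offset was not tested, nor was the cause of the differences between the settings.

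**Figure D2:**
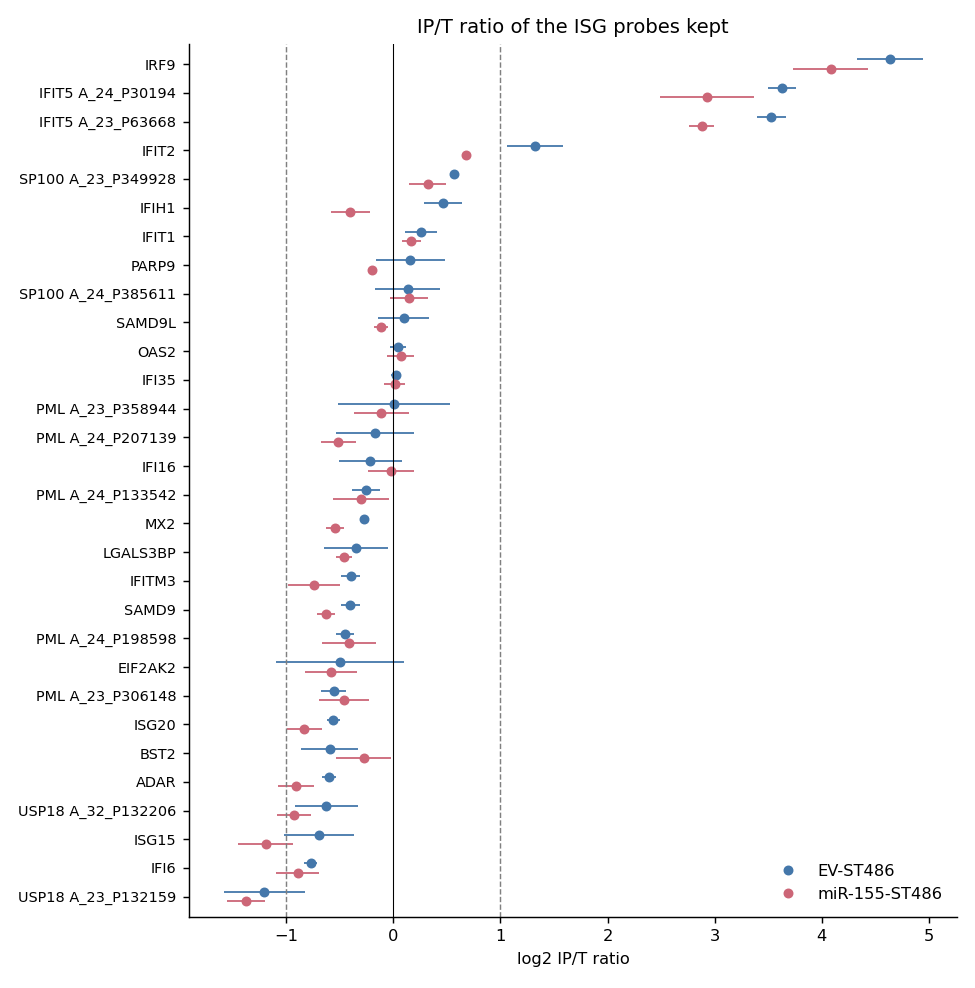
Log2 IP/T ratio (x axis) of the 30 kept ISG probes (y axis, with the probe name for genes with several), for cells with EV (blue) and with miR-155 (red), with points for means of the labellings, bars spanning both dye orientations and dashed lines at 2-fold. IRF9 and both IFIT5 probes lie to the right of all others, and most ISGs lie between the dashed lines.

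At the other end, ISG15 and USP18, the kept members of the ISG15 system, were lower in the IP than in the total fraction. IP/T ratios of 0.5 or less were found for 1 ISG probe with EV (10% of all kept probes), a probe of USP18, and for 2 with miR-155 (9.83% of all kept probes), those of USP18 and ISG15. In both dye orientations 0 and 1 of them passed. ISG15, a ubiquitin-like modifier that is attached to proteins during the interferon response, had signals of 13183 and 9491 in EV total RNA, 7335 and 6501 in EV IP RNA, 10962 and 9718 in miR-155 total RNA and 5064 and 4017 in miR-155 IP RNA. Both IP values lay below both total values in each vector. The ISG15 ratio was 0.617 (0.493 and 0.773) with EV and 0.437 (0.366 and 0.521) with miR-155.

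USP18, the protease that removes ISG15 and that blocks signalling at the interferon receptor, was measured by 2 kept probes that are uncertain in so far as the near-identical USP41 may share their signal. For A_23_P132159 the signals were 1876 and 1296 in EV total RNA, 730.1 and 626 in EV IP RNA, 717 and 708 in miR-155 total RNA and 309 and 244 in miR-155 IP RNA. For A_32_P132206 they were 3342 and 3900.0 in EV total RNA, 2061 and 2651 in EV IP RNA, 1527 and 1964 in miR-155 total RNA and 926 and 899 in miR-155 IP RNA. On both probes EV total RNA was highest and miR-155 IP RNA lowest. The IP/T ratios of A_23_P132159 were 0.434 (0.334 and 0.563) with EV and 0.385 (0.341 and 0.436) with miR-155, and those of A_32_P132206 were 0.647 (0.793 and 0.528) and 0.527 (0.589 and 0.472). With the normexp settings in which the probes passed the filters, no IP/T ratio of USP18 or ISG15 was 0.5 or less. The ratios of A_23_P132159 were 0.645 and 0.829 with EV and 0.591 and 0.831 with miR-155, and in the 1 setting with a value for ISG15 its ratios were 0.779 with EV and 0.600 with miR-155.

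Across the kept ISG probes the IP/T ratio was close to that of all probes. The median log2 IP/T ratio was -0.24 with EV, against -0.15 for all kept probes, and -0.35 with miR-155, against -0.18. A ratio below 1 was found for 17 ISG probes with EV (58.2% of all kept probes) and for 21 with miR-155 (59.4%). IP RNA exceeded total RNA in both dye orientations for 7 ISG probes with EV (31.4% of all kept probes) and for 6 with miR-155 (33.3%). IFI6, a mitochondrial and endoplasmic reticulum protein that inhibits apoptosis, had IP/T ratios of 0.586 (0.610 and 0.562) and 0.538 (0.468 and 0.619), but its IP RNA in Cy5 was not detected in either vector. OAS2 was likewise not detected with Cy5 in either IP sample and IFITM3 not in that of miR-155-ST486 cells, and IFITM3 may share signal with the near-identical IFITM2.

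In the total fraction, USP18 was lower and PARP9 higher with miR-155 than with EV. These were the 3 of 30 kept ISG probes with an at least 2-fold change (1.06% of all kept probes), 2 lower (0.380% of all kept probes) and 1 higher (0.676%), and 0 of them reached 2-fold in both dyes. With n = 1 and 1 vector per slide, neither change was tested. The median log2 change of the total signal was 0.07 over the 30 ISG probes and 0.02 over all kept probes. The total signal was lower with miR-155 for 12 ISG probes (47.9% of all kept probes). Higher values in both dyes were found for 12 ISG probes (37.3% of all kept probes) and lower values in both for 9 (34.5%).

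The total signals of USP18 printed above were lower in miR-155-ST486 cells with both probes and both dyes. The total change, as miR-155 over EV, was 0.457 (0.382 in Cy3 and 0.547 in Cy5) on A_23_P132159 and 0.480 (0.457 in Cy3 and 0.503 in Cy5) on A_32_P132206. The IP signals changed in the same direction, to 0.406 and 0.390 of those in EV-ST486 cells. In the spot medians less local background, before any normalization, all kept probes had a median log2 change of 0.20 in Cy3 and of 1.37 in Cy5. Relative to these medians, A_32_P132206 changed by -1.12 in Cy3 and by -1.14 in Cy5, and A_23_P132159 by -1.37 in Cy3 and by 0.11 in Cy5. The lower value of A_23_P132159 in Cy5 was thus not seen in the spot medians. In the deposited signals without normalization between channels, its log2 change, as mean of the dyes, was -1.105 relative to the median of all kept probes. The cause of this difference was not tested. With the 3 normexp settings the change of A_32_P132206 lay between 0.484 and 0.661, and A_23_P132159 rose to between 0.678 and 0.845 where it passed the filters.

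PARP9, an ADP-ribosyltransferase family member that acts with DTX3L in interferon signalling, had signals of 114 and 92.7 in EV total RNA, 82.8 and 159.6 in EV IP RNA, 211 and 226 in miR-155 total RNA and 200.5 and 179.8 in miR-155 IP RNA. Both miR-155 total values lay above both EV total values, of which that in Cy5 was not detected. The total change was 2.12 (1.84 in Cy3 and 2.44 in Cy5), and the IP/T ratios were 1.12 (1.39 and 0.893) and 0.870 (0.852 and 0.888). With the normexp settings the total change of PARP9 lay between 1.103 and 1.36. GBP1, a guanylate-binding GTPase whose probes were not kept, was named after its values were seen. Its probe A_32_P107372 gave total signals of 86.8 and 82.9 with EV against 151 and 153 with miR-155, with EV total RNA in Cy5 not detected, and was removed because the EV IP labellings differed by over 2-fold. Its other probe, A_23_P62890, gave 45.1 and 11.1 against 73.9 and 80.5 and was not detected in EV total RNA in Cy5 either.

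**Figure D3:**
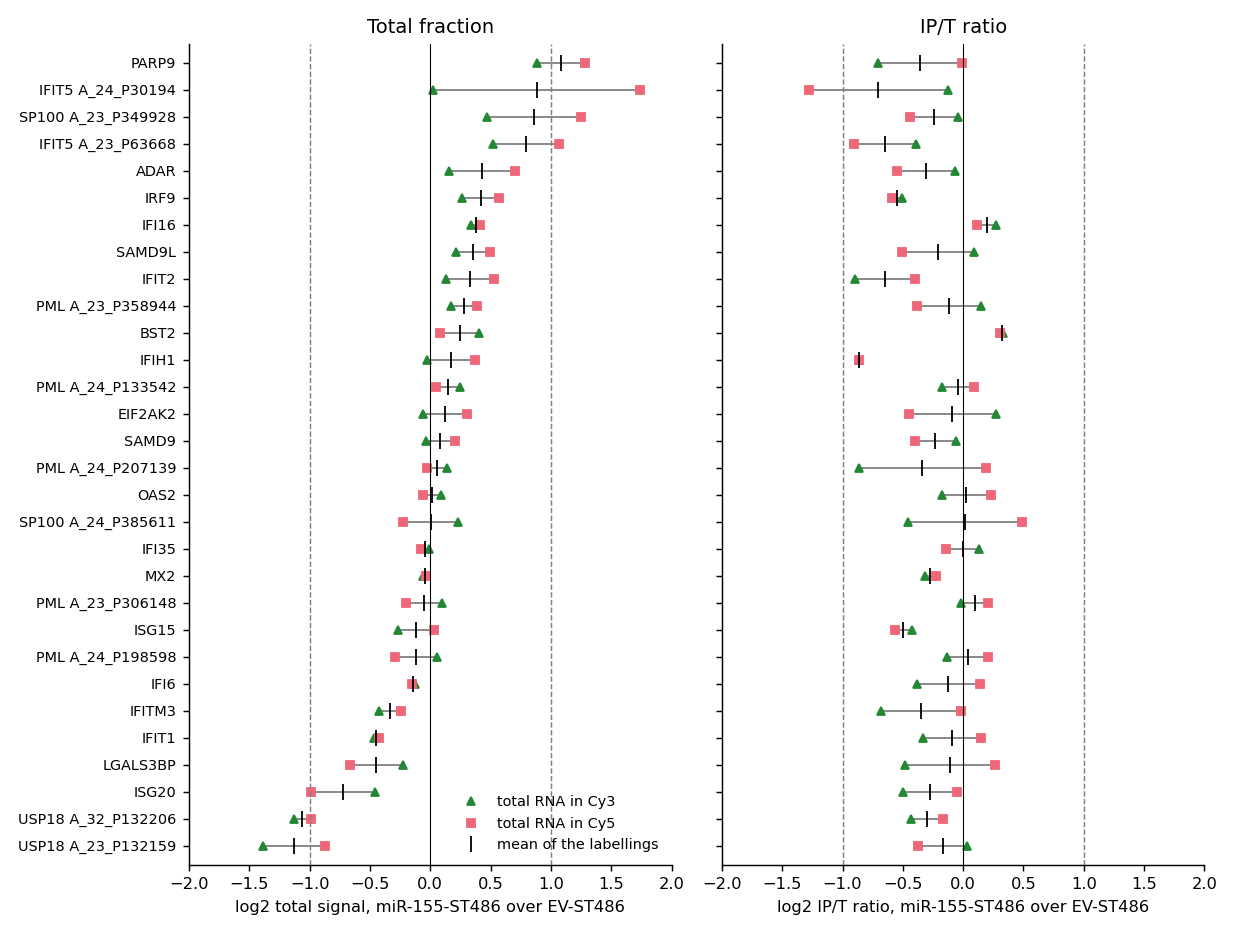
Change from EV to miR-155 of the 30 kept ISG probes, ordered by the total fraction, as log2 total signal (left) and log2 IP/T ratio (right), with triangles for arrays with total RNA in Cy3, squares for those with total RNA in Cy5, ticks for the means of the labellings and dashed lines at 2-fold. The USP18 probes lie at the bottom left and PARP9 at the top left, and on the right 0 mean values lie beyond 2-fold.

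Between the vectors, 0 of the 30 ISG probes changed their IP/T ratio by 2-fold in either direction (1.63% of all kept probes), 0 of them higher (1.15%) and 0 lower (0.477%). The miR-155/EV ratio of IP/T was below 1 for 24 of the 30 probes (53.6% of all kept probes), and for 14 in both dye orientations (32.7% of all kept probes). BST2 and IFI16, 2 of the 30 probes, were above 1 in both (26.7% of all kept probes). The median log2 ratio was -0.22 for the ISG probes and -0.02 for all kept probes. Among probes detected in all 8 channels the ISG median was -0.12, and with the 3 normexp settings it lay between -0.02 and 0.00, against between 0.00 and 0.03 for all kept probes. The ratio contains the total channels of both vectors and is thus not independent of the total changes above.

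IFIH1, the RNA sensor MDA5, had the lowest ratio and was singled out after its values were seen. Its signals were 223 and 176 in EV total RNA, 274 and 272 in EV IP RNA, 219 and 228 in miR-155 total RNA and 195 and 146 in miR-155 IP RNA, and it was detected in all 8 channels. In EV-ST486 cells IP RNA was above total RNA with both dyes, and in miR-155-ST486 cells it was below. The IP/T ratio was 1.38 (1.22 and 1.56) with EV and 0.757 (0.668 and 0.858) with miR-155, which makes a miR-155/EV ratio of 0.549 (0.548 and 0.550). Such a reversal in both orientations was seen for 1 of the 30 ISG probes and for 3.23% of all kept probes. With the normexp settings the log2 IP/T ratio of IFIH1 in EV-ST486 cells lay between 0.02 and 0.07, and the log2 miR-155/EV ratio between -0.25 and -0.08. IFIT5 and IFIT2 followed with ratios of 0.615 (0.917 and 0.412) on A_24_P30194, 0.637 (0.760 and 0.533) on A_23_P63668 and 0.639 (0.538 and 0.759) for IFIT2, and IRF9 had 0.683 (0.703 and 0.662). EV total RNA in Cy5 was not detected on any of these probes, nor was miR-155 IP RNA in Cy5 for IFIT2. From EV to miR-155 the IFIT5 probes changed 1.84- and 1.74-fold in total RNA and 1.13- and 1.11-fold in IP RNA. With the normexp settings their log2 total changes lay between -0.22 and 0.1.

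**Figure D4:**
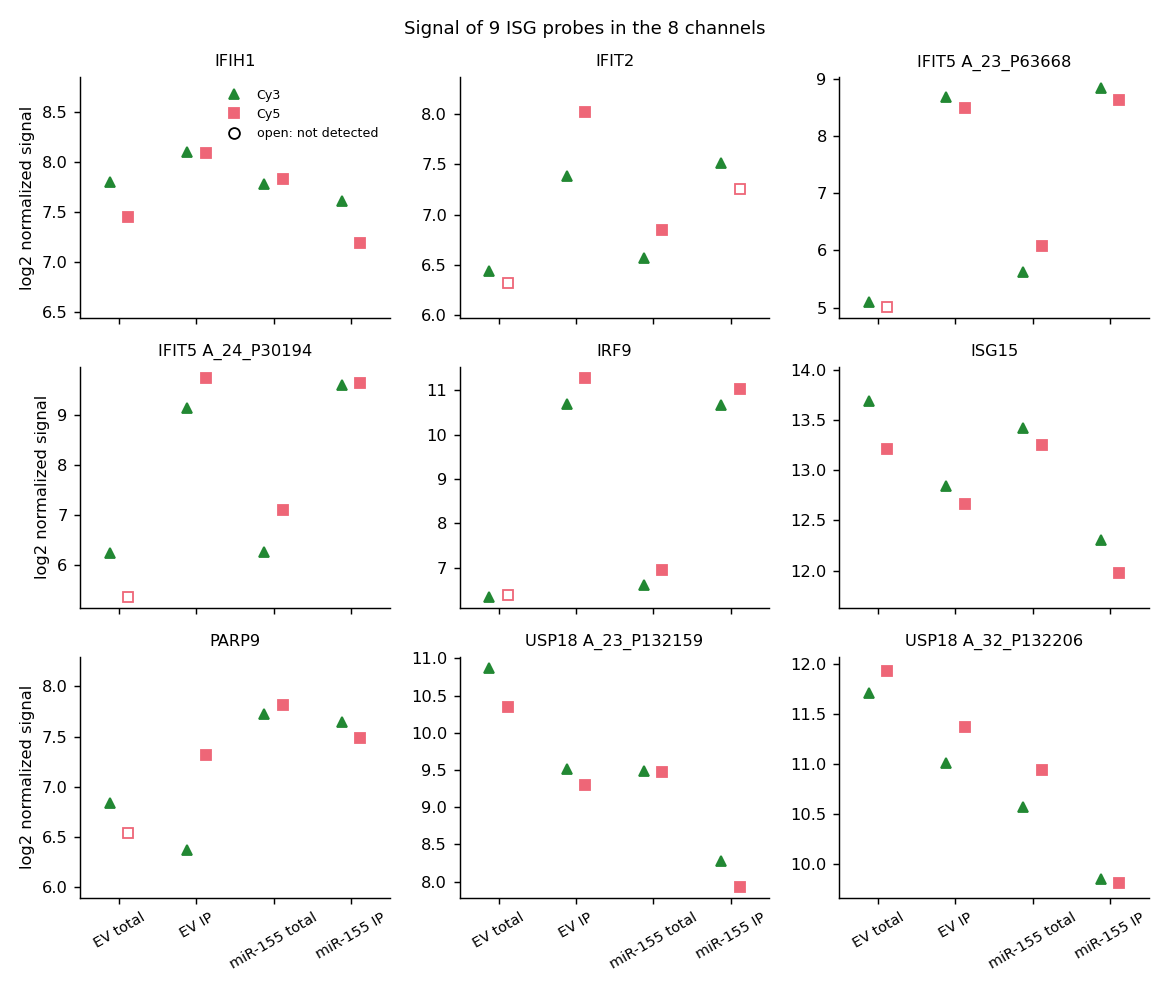
Log2 normalized signal (y axis, scaled for each panel) of 9 kept ISG probes in the 4 RNA samples (x axis), with triangles for Cy3, squares for Cy5 and open symbols for channels in which the probe was not detected. IRF9 and IFIT5 are high in both IP samples, USP18 is lower in both miR-155 samples, and IFIH1 is highest in EV IP RNA.

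The 10 further ISGs were the brightest kept members without a 2-fold call. Their means of the labellings therefore lie within 2-fold by choice, between fractions as well as between vectors, and this is not a result. Among sensors and RNA-modifying enzymes, EIF2AK2 (PKR), which halts translation on binding double-stranded RNA, gave 1536 and 970.3 in EV total RNA, 1041 and 721 in EV IP RNA, 1472 and 1198 in miR-155 total RNA and 944 and 832 in miR-155 IP RNA. ADAR, which edits adenosine in double-stranded RNA, gave 4459.9 and 3416 in EV total RNA, 2358 and 2811 in EV IP RNA, 4965 and 5547 in miR-155 total RNA and 2622 and 2979.5 in miR-155 IP RNA. ADAR was lower in IP than in total RNA throughout, with IP/T ratios of 0.659 (0.630 and 0.690) and 0.533 (0.600 and 0.473), whereas for EIF2AK2 the EV value of 0.709 (0.469 and 1.07) changed direction between dye orientations. The DNA sensor IFI16 gave 2318 and 1872 in EV total RNA, 1983 and 1627 in EV IP RNA, 2934 and 2498 in miR-155 total RNA and 2860.4 and 2493 in miR-155 IP RNA on its kept probe. It was higher in miR-155 than in EV total RNA, with a change of 1.30 (1.27 in Cy3 and 1.33 in Cy5).

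The nuclear body genes were measured by several probes that did not behave alike. SP100, a scaffold of nuclear bodies, gave 45989 and 32039.8 in EV total RNA, 48110.3 and 66817 in EV IP RNA, 63596 and 76344 in miR-155 total RNA and 84449 and 89589 in miR-155 IP RNA on A_23_P349928, with IP/T ratios of 1.48 (1.45 and 1.502) and 1.25 (1.41 and 1.11) and a total change of 1.82 (1.38 in Cy3 and 2.38 in Cy5). The second kept SP100 probe, A_24_P385611, changed in the total fraction by 1.00 (1.17 in Cy3 and 0.857 in Cy5) and thus not in 1 direction. PML, the organiser of these bodies, had 5 kept probes. The brightest, A_23_P358944, gave 4245 and 3438 in EV total RNA, 4965 and 2963 in EV IP RNA, 4789.9 and 4491 in miR-155 total RNA and 4966 and 3711 in miR-155 IP RNA. Total changes of the 5 PML probes lay between 0.922 and 1.21, and their IP/T ratios from 0.680 to 1.00 with EV and from 0.701 to 0.926 with miR-155.

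BST2 (tetherin), which retains budding virus at the cell surface, gave 2929.5 and 2939 in EV total RNA, 2344 and 1610.4 in EV IP RNA, 3885 and 3116 in miR-155 total RNA and 3077 and 2685 in miR-155 IP RNA. IP was below total RNA in all comparisons, with IP/T ratios of 0.662 (0.550 and 0.797) and 0.826 (0.691 and 0.988). The paralogs SAMD9 and SAMD9L, which restrict poxviruses, gave 872 and 811 in EV total RNA, 652 and 623 in EV IP RNA, 854 and 932 in miR-155 total RNA and 567 and 585 in miR-155 IP RNA for SAMD9 and 445 and 399.7 in EV total RNA, 504 and 404 in EV IP RNA, 518 and 564 in miR-155 total RNA and 499 and 501 in miR-155 IP RNA for SAMD9L. SAMD9 was lower in IP than in total RNA with both dyes and vectors, and SAMD9L showed no common direction in EV-ST486 cells, with 1.07 (0.908 and 1.26). ISG20, an exonuclease that degrades RNA, gave 3819 and 4980.4 in EV total RNA, 3234 and 2705 in EV IP RNA, 2787 and 2515 in miR-155 total RNA and 1579.5 and 1398 in miR-155 IP RNA. Its total signal was lower with miR-155, with a change of 0.607 (0.730 in Cy3 and 0.505 in Cy5), and IP/T ratios were 0.678 (0.708 and 0.649) and 0.561 (0.501 and 0.628). IFI35 gave 367 and 349 in EV total RNA, 364 and 362 in EV IP RNA, 365 and 331 in miR-155 total RNA and 312 and 395 in miR-155 IP RNA, and IP and total signals differed by less than the labellings did. Both LGALS3BP, a secreted protein that binds galectin-3, and IFIT1 were lower in total RNA of miR-155-ST486 cells, with changes of 0.734 (0.855 in Cy3 and 0.629 in Cy5) for LGALS3BP and 0.734 (0.722 in Cy3 and 0.746 in Cy5) for IFIT1. MX2, a GTPase that blocks nuclear import of viral genomes, had a total change of 0.968 (0.960 in Cy3 and 0.976 in Cy5).

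Components upstream of the ISGs were taken from lists of ligands, receptors and kinases, transcription factors, sensors and adaptors, and negative regulators, 50 genes in all. A probe was present for 47 genes, and 29 genes were kept with 35 probes. Of 9 interferon genes with a probe 7 were not detected, and IFNL2 alone was kept, at signals between 48.2 and 88.8. At least 2-fold IP enrichment was found for 9 of the 35 probes with EV, against 12.1% of all kept probes, and for 8 with miR-155, against 12.2%. The feedback inhibitor SOCS1 had IP/T ratios of 22.8 with EV and 23.3 with miR-155 on A_23_P420196, and 14.1 and 14.4 on A_24_P48014. CISH, a second member of the SOCS family, had ratios of 9.66 and 6.69. Receptor subunits followed, with 6.12 in both vectors for IFNGR2 and with 5.18 and 4.96 for IFNLR1. Of the remaining genes past 2-fold, IRF1 (2.64 and 2.78), IRF2 (2.62 and 2.92) and TLR7 (2.51 and 2.03) passed in the means of both vectors and TBK1 in that of EV (2.21, against 1.82). Each had a dye orientation below 2, at 1.795 for IRF1, 1.845 for IRF2 and 1.87 for TBK1 with EV and at 1.84 for TLR7 with miR-155.

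MYD88, an adaptor of Toll-like receptors, was lower in IP than in total RNA of EV-ST486 cells, with a ratio of 0.321 on A_23_P362659, and 0.605 in miR-155-ST486 cells. For a second MYD88 probe EV IP RNA was not well above background with either dye, so that its ratio is uncertain. After normexp, loess and Aquantile the IP signal of this probe was 1.14-fold lower than its total signal. That IP value was the probe's own signal and not a detection limit. In the total fraction 0 of the 35 probes changed by 2-fold, against 1.06% of all kept probes, so that the 0 says nothing particular of this list.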

How the data were processed

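ST486 cells with the empty vector or with ectopic miR-155 were profiled as total and Ago2-IP RNA, each labelled with Cy3 and Cy5, on 4 2-colour Agilent arrays. Per the file headers, the deposited intensity values came from Feature Extraction 10.5.1.1, after subtraction of background and normalization of the dyes on each array. A deposited log2 table of 14453 probes had been made in GeneSpring by quantile normalization and filtering, and of its values 99.9% lay within 0.05 of those computed here.

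Control spots were left out, spots of a probe averaged, signals below 1 set to 1 and log2 values quantile-normalized over the 8 channels. A probe was called detected where it was positive, significant and well above background, and was kept with at least 4 such channels and no more than 2-fold between labellings. IP/T and its miR-155/EV ratio were taken from means of the log2 labellings, and 2-fold was the threshold in either direction. Through their RefSeq accessions 23958 of the 41000 probes were given a symbol, and promoter and miRNA sequences were taken from RefSeq tables of GRCh38.p14. Neither the anti-IgG control precipitation nor the HL cell lines are covered here. Values of 1 pathway gene are not reported here.

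Since every condition is 1 RNA sample, no test was made. The procedure was tested on simulated data. The simulation covered the miR-155/EV ratio of kept probes alone, without background or detection, and not the IP/T or total calls. The members, the lists of pathway genes and markers and the alternatives were chosen with earlier results of these data known. Named with values in every channel were members past a 2-fold call and the 10 further kept members with the highest mean signal. A gene with several kept probes was given by the brightest and the other probes beside it, and pathway genes were named where they passed a call. IFIH1, GBP1, IFIT1, IFI6, LGALS3BP and MX2 were named after their values were seen. Alternatives were normexp with an offset of 50, with local backgrounds above 500 replaced or as deposited and with loess and Aquantile, no normalization between channels, the authors' log2 values, other filters, means and thresholds, and each dye orientation alone. limma 3.58.1 was run in R 4.3.3, and the other steps in Python 3.11.15 with pandas 2.3.3, numpy 2.4.6 and matplotlib 3.10.9.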

Additional observations from a re-analysis of the deposited data

Results flagged for a closer look

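The IP/T ratio of IFIH1 was above 1 in both dye orientations of EV-ST486 cells and below 1 in both orientations of miR-155-ST486 cells, with a miR-155/EV ratio of 0.549. Such a reversal was seen for 1 of the 30 ISG probes and for 3.23% of all kept probes, so it is not particular to ISGs. With the normexp settings the EV ratio of IFIH1 was closer to 1. With 1 RNA sample per condition this difference between the vectors was not tested, and the vectors lay on separate slides.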

How the results depend on the processing

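In EV and miR-155 cells, 4 and 3 ISG probes were enriched 2-fold in the IP and 1 and 2 depleted, 0 had a changed miR-155/EV ratio and 3 a changed total fraction. Every called value kept its direction under all alternatives in which its probe passed the filters. The cause of the following changes was not tested. Where no share of all kept probes is given with a count, the change says nothing particular of ISGs. With normexp, high local backgrounds replaced and quantile normalization, 2 probes were enriched in EV-ST486 cells, 0 were depleted in either vector and 1 changed in the total fraction. With loess and Aquantile instead, 0 and 1 were enriched with EV and miR-155, 0 were depleted and 1 changed in the total fraction, and with backgrounds as deposited all 5 of these numbers were 0. Detection in all 8 channels, a filter that removes IRF9, IFIT5 and IFIT2, left 0 enriched probes in either vector. Without a detection filter 1 probe (OAS3, not detected) changed its miR-155/EV ratio. Without the filter on dye differences 2 and 5 were depleted and 1 (IFIT3) changed its ratio. At 1.5-fold, 6 and 8 were depleted (25.9% and 26.8% of all kept probes), 4 changed their ratio (8.74%) and 7 the total fraction (9.49%), and at 3-fold 0, 0 and 0 were depleted or changed in the total fraction. Required in each dye orientation, the numbers were 0 and 1 depleted and 0 changed in the total fraction.

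With either dye orientation left out, depletion with EV ranged from 0 probes (total RNA in Cy5) to 3 (total RNA in Cy3: EIF2AK2, ISG15 and USP18). Depletion with miR-155 was found for 3 probes in each orientation, but not for the same ones. With total RNA in Cy3 these were ISG15, IFI6 and USP18 A_23_P132159, and with total RNA in Cy5 they were ADAR and both USP18 probes. Enrichment ranged from 4 to 4 with EV and from 3 to 3 with miR-155, and the changed ratio from 0 to 1 (IFIT5, total RNA in Cy5). The changed total fraction ranged from 2 (USP18, Cy3) to 4 (IFIT5, PARP9 and SP100, Cy5). Without normalization between channels the median total change of all probes was 0.44 (log2) in place of 0.02, and relative to it the USP18 probes changed by -1.01 and -1.11 and PARP9 by 1.01. No paired analysis of the vectors was possible because the labels give no replicate numbers and each condition is 1 RNA sample. IP and total RNA of one vector were compared within their shared arrays. Low signal over background, in Cy5 of EV total and of both IP samples in particular, limits the ratios of dim probes.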
